A study of Danio rerio with 31 samples.

Results

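Protocadherins are the largest family of cadherin adhesion proteins. Their genes were taken here as all Ensembl gene IDs whose symbol starts with pcdh, in any letter case, which gave 58 of the 32520 IDs counted. Of these, 30 were clustered genes, named pcdh1 or pcdh2 with a subfamily letter and a number: 3 pcdh1a, 14 pcdh1g, 2 pcdh1gc, 10 pcdh2ab and 1 pcdh2g gene. The other 28 were 21 solitary genes such as PCDH10 and PCDH19 and 7 genes with cluster-type names outside that pattern (pcdh1gb2, pcdh1gb9, pcdh2aa1, pcdh2aa15, pcdh2ac, pcdha8l and pcdhb).

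Each of the 24 libraries came from the whole brain of 1 adult zebrafish, all of the laboratory wild-type line TU. The F0 fish were males: 6 had received a mixture of PCBs (polychlorinated biphenyls, chlorinated industrial oils) and PBDEs (polybrominated diphenyl ethers, brominated flame retardants), and 6 were controls. The F2 fish were not exposed themselves and descended from treated or control fish: 4 females and 2 males of the treated line, and 4 females and 2 males of the control line. The study asked what the mixture changed in exposed brains and in those of later offspring. Fish of a group are separate animals, and whether they share a family, clutch or tank is not stated in the labels.

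As background, the clustered protocadherins of vertebrates are built from many variable exons, each with its own promoter, that are spliced to shared constant exons. In mouse, single neurons use different combinations of them, and matching combinations on branches of the same cell lead to their repulsion. The solitary protocadherins are ordinary single genes. They fall mainly into the delta-1 type (PCDH1, PCDH7, PCDH9, PCDH11) and the delta-2 type (PCDH8, PCDH10, PCDH17, PCDH18, PCDH19), which act in axon growth, cell movement and synapse formation.

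Gene reads summed to 12.2 to 34.1 M per fish. At an equal depth of 12.2 M reads, 19343 to 21317 genes had a read in 19 fish, but 15665 in F2 treated female 6, 16015 in F2 treated female 24, 16421 in F2 control female 21, 18191 in F2 control female 11 and 18690 in F0 treated male 16. The share of uniquely aligned reads outside genes was 19.9 to 21.4% in F0 control males and 16.6 to 19.5% in F0 treated males, with no overlap. Summed photoreceptor markers (32 gene IDs, none at 0 in all fish) ranged from 28.4 to 1391 CPM (read counts scaled to library size and between libraries) and were low in F0 control males 9 and 33, at 40.7 and 33.8 CPM. Summed neuron markers (20 IDs) were 11137 to 12375 CPM in F0 controls and 12053 to 13300 CPM in F0 treated males. Levels below are CPM without correction for transcript length, so they compare fish for the same gene and rank no gene above another.

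Of the 58 genes, 54 had at least 1 read in some fish, among them 28 of the 30 clustered genes. A mean of at least 1 CPM over the 24 fish was reached by 9 clustered genes, by pcdhb and by 18 of the 21 solitary genes. All 18 of those solitary genes had reads in every fish, but only 1 clustered gene did, pcdh2g28 (ENSDARG00000098788), the sole pcdh2g gene in the set. It held 92.9% of the 220810 reads on clustered genes, a share that may include reads on exons shared by several genes. The heat map of all members by fish shows in which fish each gene had reads.

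**Figure D1:**
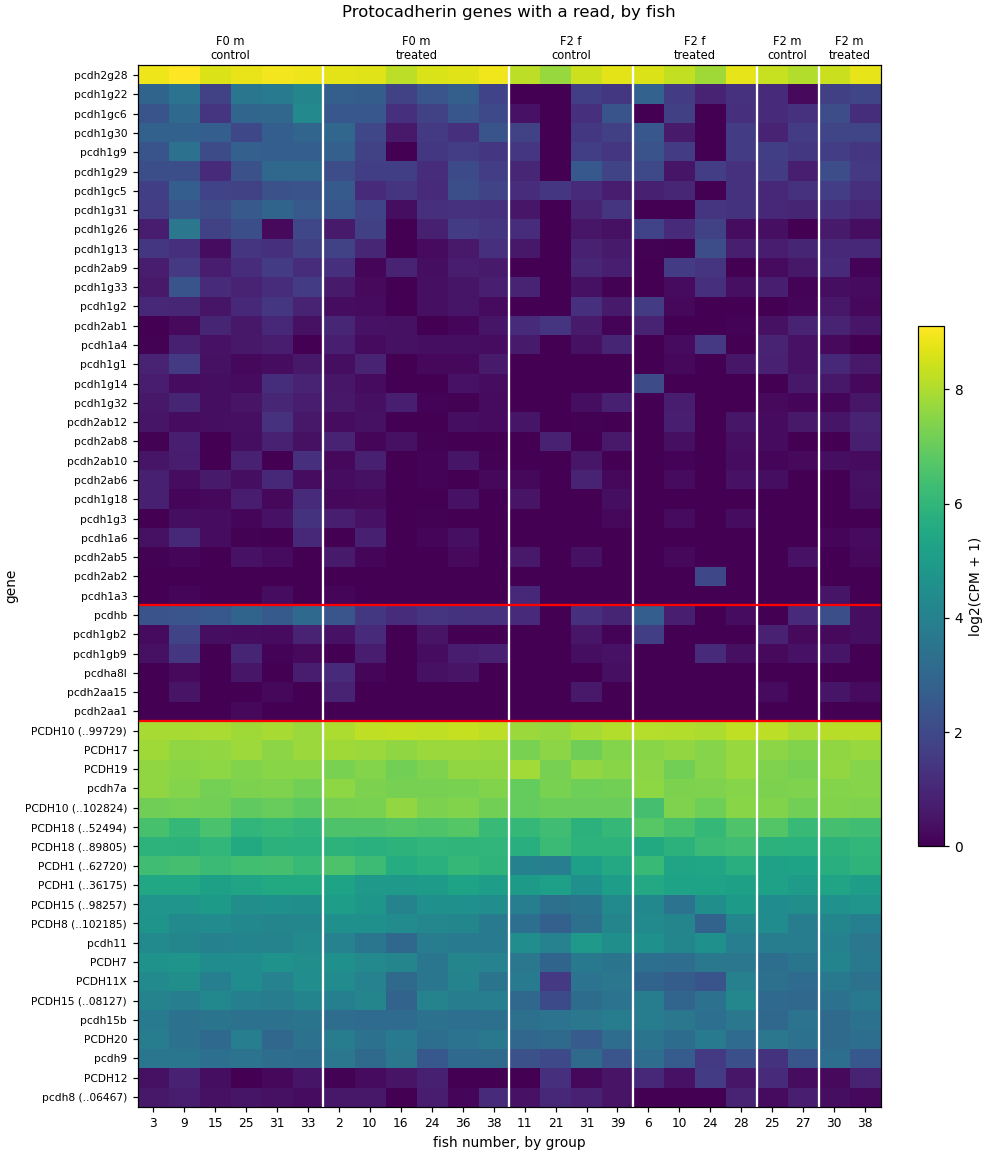
Level of the 54 protocadherin genes with a read (rows) in each of the 24 fish (columns, fish numbers, ordered by group), as log2(CPM + 1). The red lines separate clustered genes (top), genes with cluster-type names (middle) and solitary genes (bottom), each ordered by mean; pcdh2g28 has reads in every fish, and most other clustered genes are near 0 in some fish. Colours follow read numbers and are not corrected for transcript length.

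The concentration of reads on pcdh2g28 bears on how reads on shared exons were counted. In the RefSeq gene table (assembly GRCz12tu, used for names and neighbours only), 22 clustered genes matched by symbol, 15 on chromosome 10 and 7 on chromosome 14. There, 13 pcdh1g, pcdh1gc and pcdh1gb genes have 1 boundary in common, as do 3 pcdh1a genes and 9 pcdh2aa, pcdh2ab and pcdh2ac genes. A read within an exon that several gene models share is not assigned to any of them in the default setting of HTSeq, the authors' counting tool. Whether the gene models that the authors used share such exons is not given in the sources used here. The levels of clustered genes other than pcdh2g28 may therefore cover their variable exons only, and pcdh2g28 itself may hold reads of shared exons, in which case its level and its share would not be those of 1 isoform. The part of shared exons in either was not tested.

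In F0 control males pcdh2g28 had 393 CPM at the lowest, 468 at the median and 552 at the highest. In F0 treated males it had 291, 406 and 478 CPM. The arms overlapped, and the log2 difference of −0.23 (SE 0.107) did not pass (edgeR adjusted p = 0.159). In F2 females it was at 292, 210, 340 and 430 CPM in control fish 11, 21, 31 and 39, and at 399, 310, 224 and 438 CPM in treated-line fish 6, 10, 24 and 28. In F2 males it was at 323 and 269 CPM in the control line and at 335 and 437 CPM in the treated line. The lowest fish of the F0 treated, F2 female control and F2 female treated groups (16, 21 and 24) are among the 5 with few genes detected.

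The other 29 clustered genes summed to a level that varied between fish. In F0 control males the sum was 28.3 CPM at the lowest, 57.3 at the median and 81.7 at the highest, and in F0 treated males it was 11.0, 26.1 and 47.2 CPM. Only treated male 2 lay above 30 CPM in its arm, and 2 control males (3 and 15) lay below treated male 2, so the arms overlapped. In F2 fish it was 4.11 to 20.9 CPM in control females, 14.4 to 27.4 CPM in treated-line females, 13.6 and 14.3 CPM in control males and 25.1 and 18.9 CPM in treated-line males. In F0 controls pcdh1 genes gave 25.9 to 77.8 CPM of the sum and pcdh2 genes 2.34 to 6.56 CPM. Of this sum, which leaves out pcdh2g28, the pcdh1 genes gave more than the pcdh2 genes in 23 of the 24 fish. The exception was F2 control female 21 with 1.70 and 2.41 CPM. The sets differ in size, with 3 pcdh1a, 14 pcdh1g and 2 pcdh1gc genes against 10 pcdh2ab genes, so this ranks neither cluster above the other.

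**Figure D2:**
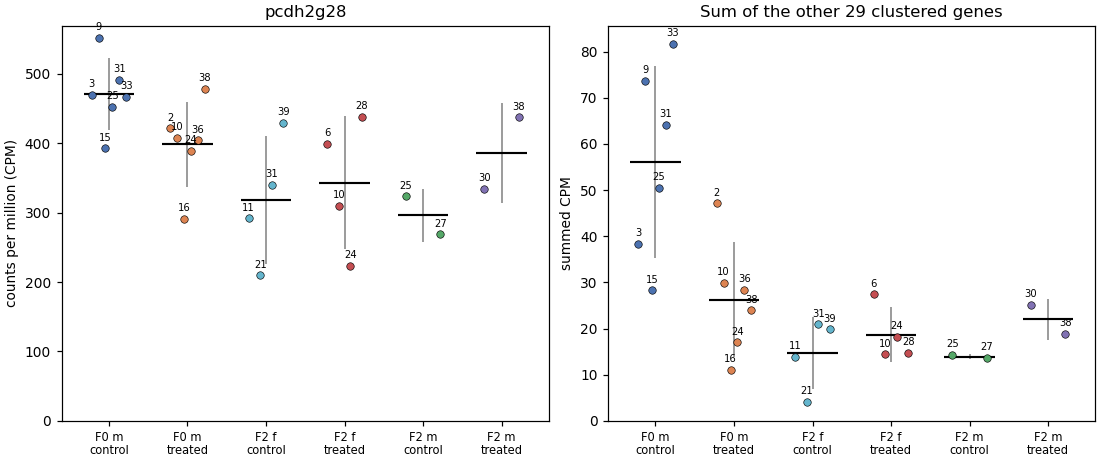
CPM of pcdh2g28 (left) and summed CPM of the other 29 clustered genes (right) by group; points are fish with their numbers, black lines are group means and grey bars are 1 SD. In the right panel F0 control males spread from 28.3 to 81.7 CPM, and F2 fish lie at 27.4 CPM or below.

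The number of clustered genes with any read also differed between fish. It was 23 to 27 of 30 in F0 control males and 12 to 26 in F0 treated males. Among F2 fish it was 4 to 20 in control females, 10 to 20 in treated-line females, 20 and 20 in control males and 22 and 24 in treated-line males. The 4 fish at 12 or fewer were F2 control female 21 with 4, F2 treated female 24 with 10, F2 treated female 6 with 11 and F0 treated male 16 with 12. These 4 are also among the 5 fish with the fewest genes of any kind detected at equal depth, as the plot of detected genes shows. A fish without a read on a gene still allows 3 reads, or 0.0864 to 0.251 CPM at these depths, counting error only.

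**Figure D3:**
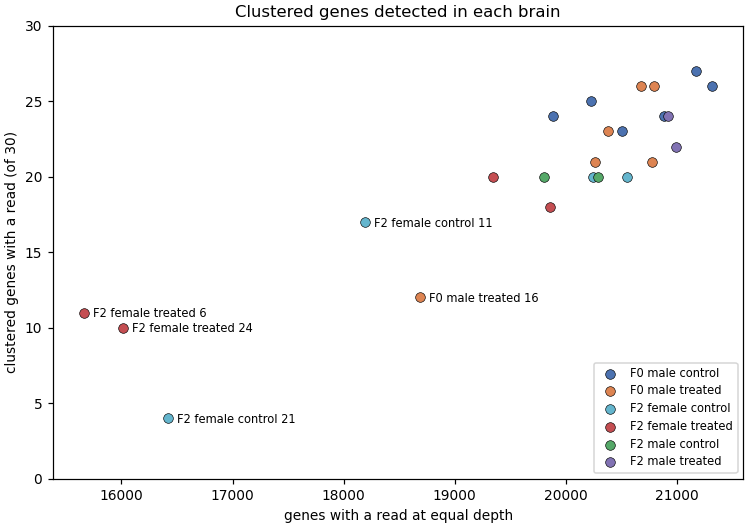
Genes of any kind with a read at an equal depth of 12.2 M reads (x axis) against clustered protocadherin genes with a read (y axis, of 30), 1 point per fish, coloured by group. The 5 named fish lie at or below 18690 detected genes and at 17 or fewer clustered genes; the number on the y axis is not corrected for depth.

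In exposed F0 males, 34 of the 58 genes had enough reads to be tested, and 7 (20.6%) passed at an adjusted p below 0.05 (edgeR quasi-likelihood test, adjusted over all 18057 genes tested). Across all genes 11.4% passed, 6.32% higher and 5.09% lower in treated males. That share depended on single fish: with 1 fish left out it was 2.40% without control male 33 at the lowest (211 genes higher and 229 lower) and 17.5% without treated male 2 at the highest, and it was below 5% also without control males 9, 25 or 31 or treated male 24. Of the 7, PCDH10 (both IDs) and 1 PCDH18 ID were higher, and pcdhb, pcdh1g2, pcdh11 and 1 PCDH1 ID were lower. They were 5 of 19 tested solitary genes, 1 of 14 tested clustered genes and pcdhb, the only tested gene of the 7 with cluster-type names. DESeq2 called 10 of the 53 members it fitted, 7 of the non-clustered and 3 of the clustered genes. It called 21.0% of the 15578 genes with an adjusted p. Members with an adjusted p were not counted apart, so the 2 shares have unlike bases. In the same comparison 4 of 15 tested radial glia markers (SOX2, ID1, HEPACAM and SLC1A3) were called higher and none lower, with a list median of 0.30 and summed levels of 5258 to 6924 CPM in controls and 6375 to 8225 CPM in treated males. Of 20 neuron markers 6 were called higher and 2 lower, ELAVL3 (−0.75) and nefma (−0.74). The part of these markers in the members' changes was not tested.

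Among delta-2 genes, PCDH10 is known in mouse for guiding axons of the forebrain. PCDH10 (ENSDARG00000099729) had 214, 239 and 246 CPM (lowest, median, highest) in control males and 252, 302 and 313 CPM in treated males. Every treated male exceeded every control, and treated male 2 was the nearest to the controls. The means were 234 ± 11.8 and 295 ± 22.5 CPM (SD, n = 6 each), and the log2 change was 0.35 (SE 0.0734, adjusted p = 0.0158 by edgeR). The call held when each of the 12 fish in turn was left out. In whole brain, a change in the number of cells of a type and a change in RNA per cell cannot be told apart.

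The other PCDH10 ID (ENSDARG00000102824) had 113, 133 and 149 CPM in controls and 144, 158 and 196 CPM in treated males. All 6 treated males lay above the control mean, and the ranges overlapped between 144 and 149 CPM. The log2 change was 0.31 (SE 0.0935, edgeR adjusted p = 0.0442), and the call held without control male 15, treated male 2 or treated male 38, and not without any of the other 9 fish. The 2 IDs share a symbol. Reads that align equally well to both may be missing from both, as HTSeq lists reads without a unique alignment apart. That loss was not measured.

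PCDH18 (ENSDARG00000052494), which binds the adaptor Dab1 in mouse, had 62.6, 66.9 and 88.5 CPM in controls and 71.2, 95.8 and 103 CPM in treated males. Control males 3 and 15 were as high as 87.9 and 88.5 CPM, and treated male 38 was low at 71.2 CPM, so the arms overlapped. The means were 72.7 ± 12.1 and 93.1 ± 11.3 CPM (SD, n = 6 each), and it rose by 0.37 on the log2 scale (SE 0.114, edgeR adjusted p = 0.0491). That call held without control male 3, control male 15 or treated male 38, and not without any of the other 9 fish. The other PCDH18 ID (ENSDARG00000089805) had a log2 difference of 0.10 (SE 0.0906, edgeR adjusted p = 0.482).

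The remaining delta-2 genes did not pass. PCDH19, whose human gene is mutated in an epilepsy of girls and whose zebrafish gene helps to shape the optic tectum, had 180 ± 9.61 CPM in controls and 169 ± 20.4 CPM in treated males. PCDH17, which sits at synapses in mouse, had 205 ± 15.3 and 211 ± 10.8 CPM. PCDH8 (ENSDARG00000102185) had 19.4 ± 3.2 and 19.0 ± 3.88 CPM, and its lower-case namesake pcdh8 (ENSDARG00000006467) averaged 0.398 and 0.478 CPM. For PCDH17 and PCDH19 the log2 differences were 0.05 (95% interval from the SE −0.08 to 0.19) and −0.08 (−0.25 to 0.08).

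Among delta-1 genes, pcdh11 and 1 PCDH1 ID fell. pcdh11 (ENSDARG00000105441) had 15.1, 16.9 and 19.7 CPM in controls and 7.54, 12.8 and 15.3 CPM in treated males. All 6 treated males were below the control mean, and only treated male 2, at 15.3 CPM, reached into the control range. The log2 change was −0.50 (SE 0.155, edgeR adjusted p = 0.0478). PCDH1 (ENSDARG00000036175) had means of 42.0 ± 4.11 and 33.2 ± 3.86 CPM (SD, n = 6 each), and its log2 change was −0.33 (SE 0.102, edgeR adjusted p = 0.0482). Its lowest, median and highest fish were at 35.4, 43.1 and 45.9 CPM in controls and 29.3, 32.3 and 38.2 CPM in treated males, with an overlap between 35.4 and 38.2 CPM.

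The calls of pcdh11 and PCDH1 lay close to the threshold. They held in 2 and 3 of the 12 fits that left out 1 fish (both without control male 15 or treated male 2, PCDH1 also without treated male 36), while the log2 change stayed between −0.58 and −0.40 for pcdh11 and between −0.37 and −0.29 for PCDH1. PCDH7, delta-1 as well, had 20.6, 22.8 and 25.2 CPM in controls and 11.0, 16.8 and 22.7 CPM in treated males. It missed the threshold with edgeR (log2 difference −0.43, SE 0.144, adjusted p = 0.0636) and passed with DESeq2. PCDH11X had a log2 difference of −0.47 (SE 0.197, edgeR adjusted p = 0.126), the other PCDH1 ID (ENSDARG00000062720) of −0.25 (SE 0.13, adjusted p = 0.207) and pcdh9 of −0.17 (SE 0.196, adjusted p = 0.594). For pcdh7a, at 162 ± 19.3 and 161 ± 14 CPM, the log2 difference was 0.00 (nominal 95% interval from the SE −0.17 to 0.17).

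Of the solitary genes outside both delta types, PCDH15 encodes part of the tip link that opens channels in hair cells of the ear, and PCDH12 is known in mouse from endothelium. PCDH15 (ENSDARG00000008127) had 15.3 ± 1.83 CPM in controls and 13.4 ± 3.61 CPM in treated males and did not pass (edgeR adjusted p = 0.566). The other PCDH15 ID had 24.8 and 23.7 CPM, pcdh15b 10.4 and 8.80 CPM and PCDH20 10.3 and 11.1 CPM on average, and none of them passed. PCDH12 had too few reads to be tested, with 79 reads over the 12 males, and pcdh20l had no read. Hair cell markers (13 IDs, none at 0 in all fish) summed to 97.3 to 135 CPM in controls, and 75.4 to 100.03 CPM in treated males, so the arms overlapped. Most of this sum was 1 gene, OTOF (ENSDARG00000030832), with means of 84.5 CPM in controls and 63.0 CPM in treated males. Only 6 of the 13 IDs reached a mean of 1 CPM. Of 9 tested, 2 were called lower and 0 higher, where 5.09% of all genes were called lower. These were OTOF (−0.41, SE 0.0835, edgeR adjusted p = 0.0155) and MYO7A (−0.996, SE 0.298, adjusted p = 0.0436). The part of these markers in the PCDH15 values was not tested.

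**Figure D4:**
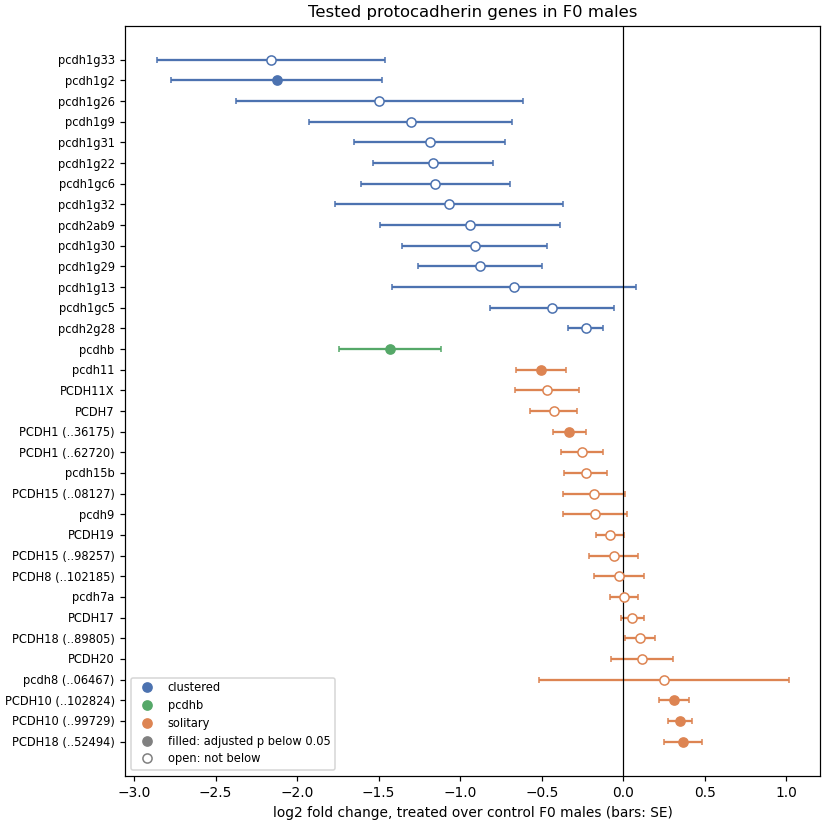
Log2 fold change of treated over control F0 males (x axis, bars are 1 SE) for the 34 tested protocadherin genes, clustered genes in blue, pcdhb in green and solitary genes in orange. Filled points passed at an adjusted p below 0.05; all 14 clustered points lie left of 0, and the 3 solitary genes that rose lie at 0.31 to 0.37.

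Among the clustered genes, all 14 tested had fold changes below 0, from −2.16 to −0.23 with a median of −1.11, against a median of −0.02 over all genes tested. Only pcdh1g2 passed, and 7 of the 14 had an unadjusted p below 0.05, against 5349 of all 18057 genes tested in edgeR. The remaining 16 were not tested, 3 of them without a read in any F0 male; of the other 13, the treated mean was lower in 12 and higher in 1. None of the 16 exceeded a group mean of 0.66 CPM. The filter on low counts can admit a gene through its higher arm alone, so the direction of the 14 tested genes is not free of it. Fitted without the filter in edgeR, 26 of 27 clustered genes had fold changes below 0 (median −1.15), and none passed. All these genes were read in the same 12 libraries, so they are not independent observations.

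The pcdh1g2 gene (ENSDARG00000101232) is 1 of the variable isoforms of the pcdh1g group. It had 1.02, 0.98, 0.445, 1.09, 1.7 and 0.886 CPM in control males 3, 9, 15, 25, 31 and 33. In treated males 2, 10, 16, 24, 36 and 38 it had 0.227, 0.209, 0, 0.305, 0.432 and 0.189 CPM. The highest treated male, at 0.432 CPM from 15 reads, lay just under the lowest control, at 0.445 CPM from 10 reads, so the arms did not overlap but almost touched. The log2 change was −2.13 (SE 0.648, edgeR adjusted p = 0.0464), and the call held only without control male 15 or without treated male 16 among the 12 fits that left out 1 fish. The gene met the filter on low counts through the control males, with 10 to 48 reads each, against 0 to 15 in treated males.

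The next clustered genes lay just past the threshold. pcdh1g22 (ENSDARG00000103013) had 2.36, 10.4 and 16.8 CPM in controls and 2.51, 4.88 and 5.78 CPM in treated males (log2 difference −1.17, SE 0.368, edgeR adjusted p = 0.051). Control male 15 was the lowest of all 12, and the other 5 controls were above every treated male. For pcdh1g33 the means were 1.65 and 0.367 CPM (log2 difference −2.16, SE 0.699, edgeR adjusted p = 0.0547). With DESeq2, pcdh1g22, pcdh1g31 and pcdh1gc6 passed, pcdh1g33 did not, and pcdh1g2 has no adjusted p.

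The other clustered genes of high level or wide spread overlapped between the arms. pcdh1gc6, of the C-type that neurons of mouse share more widely, had 1.56, 6.96 and 18.4 CPM (lowest, median, highest) in controls and 1.33, 3.74 and 4.59 CPM in treated males (log2 difference −1.15, SE 0.455, edgeR adjusted p = 0.106). pcdh1g31 had 2.15, 4.55 and 6.74 CPM and 0.251, 1.43 and 4.46 CPM (edgeR adjusted p = 0.101), and pcdh1g26 had 0.177, 2.62 and 11.3 CPM and 0, 1.16 and 2.34 CPM (edgeR adjusted p = 0.275). pcdh1g30 had 2.91, 5.89 and 6.81 CPM and 0.539, 2.39 and 7.005 CPM, and pcdh1g9 ranged from 3.30 to 9.62 CPM in controls and from 0 to 5.87 CPM in treated males. The highest treated male for pcdh1g30, pcdh1g9 and pcdh1g31 was fish 2. Treated male 2 had the highest level of its arm in 16 of the 26 clustered genes with a read there, and treated male 16 was at 0 in 15 of the 26.

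The pcdhb gene (ENSDARG00000077023) has a cluster-type name without a number. It had 4.05, 4.78 and 7.59 CPM (lowest, median, highest) in control males and 1.26, 1.57 and 4.28 CPM in treated males. Treated male 2 alone, at 4.28 CPM, reached the control range; the other 5 lay at 1.75 CPM or below. The means were 5.35 ± 1.43 and 1.98 ± 1.14 CPM (SD, n = 6 each), for a log2 change of −1.43 (SE 0.314, edgeR adjusted p = 0.0178), and this call also held with each fish left out in turn.

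**Figure D5:**
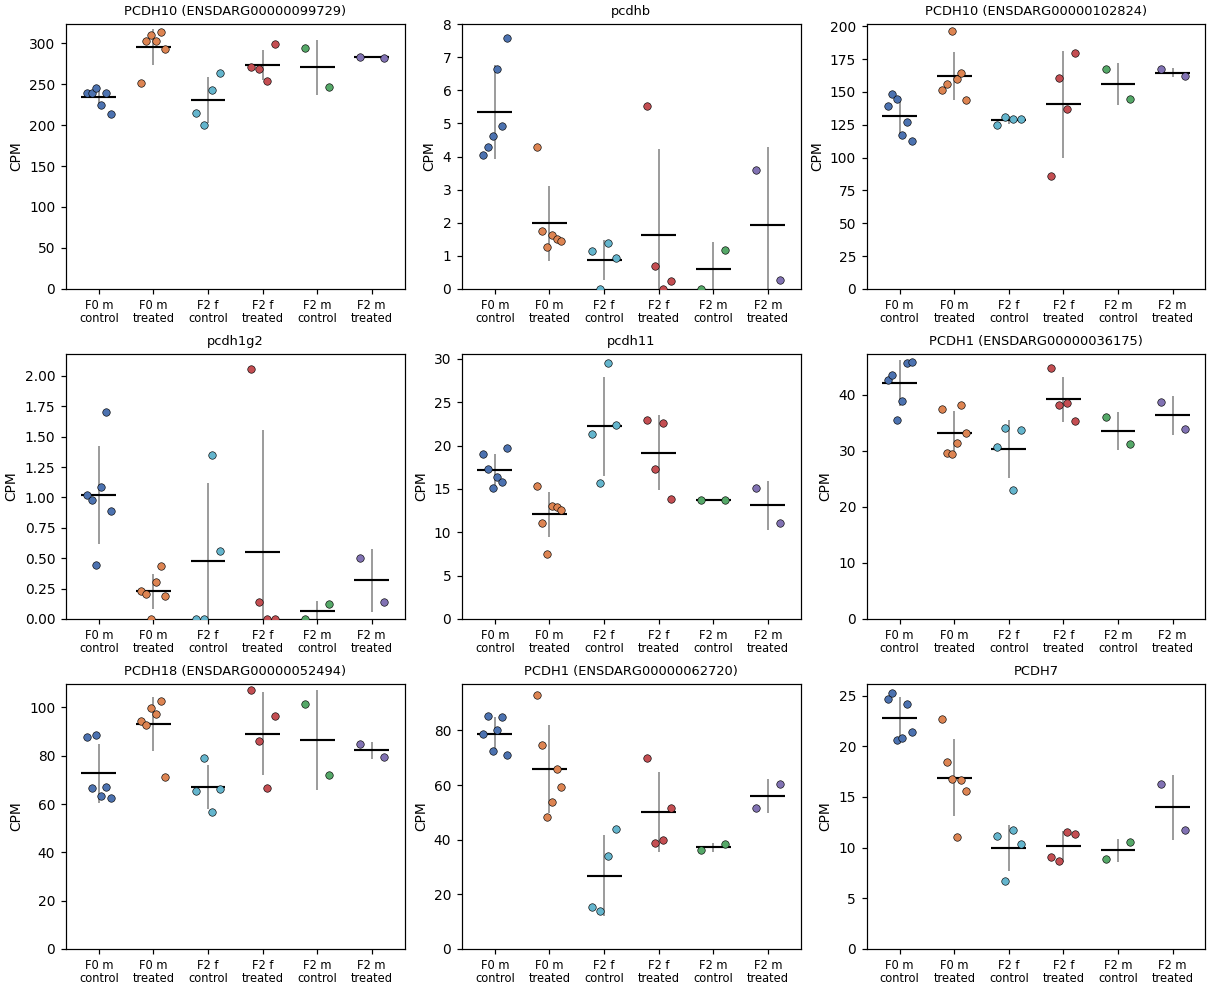
CPM by group for the 7 members that passed in F0 males and for PCDH1 (ENSDARG00000062720) and PCDH7, which passed between generations; points are fish, black lines group means, grey bars 1 SD, cut at 0. For PCDH10 (ENSDARG00000099729) the 6 treated F0 males lie at 252 to 313 CPM, above the control males at 214 to 246 CPM.

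In some F0 males library measures went with these changes, and their part in them was not tested beyond the fits given here. Treated male 2 had the highest share of reads outside genes of its arm, 19.5%, the highest clustered sum, 47.2 CPM, and the highest pcdhb and pcdh11. Treated male 16 had the lowest share of its arm, 16.6%, and the lowest clustered sum of its arm, 11.0 CPM. Treated males 10, 24, 36 and 38 had shares of 18.0, 18.4, 18.8 and 19.0%, with clustered sums of 29.9, 17.0, 28.4 and 23.9 CPM. F0 control males had shares of 19.9 to 21.4% and sums of 28.3 to 81.7 CPM. F2 control females, of another sex and generation, had shares of 21.6 to 23.5% and sums of 4.11 to 20.9 CPM. Of these females, 11 and 21 are among the fish with few genes detected. Control males 9 and 33, low in photoreceptor markers, had the highest clustered sums, 73.7 and 81.7 CPM. Among F2 fish low in these markers, control female 21, with 28.4 CPM of markers, had a clustered sum of 4.11 CPM. Treated-line female 6, with 43.7 CPM of markers, had 27.4 CPM, the highest sum of the F2 fish. Both females are among the fish with few genes detected. F2 treated male 38, not among them, had 42.4 CPM of markers and a clustered sum of 18.9 CPM. With the share outside genes as a covariate, 0 of 49 members fitted passed in edgeR (0 of 20121 genes; 1105 at an unadjusted p below 0.05), the log2 change of PCDH10 (ENSDARG00000099729) was 0.18 and that of pcdhb −0.42. Since the arms do not overlap in this share, exposure and the share cannot be told apart. Without treated male 16 and control males 9 and 33, 0 of 36 members fitted and 42 of 18473 genes passed in edgeR, with log2 differences of 0.31 for PCDH10 and −1.25 for pcdhb (adjusted p = 0.0706 and 0.079).

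In the unexposed F2 offspring, no member passed between the treated and control lines. In females 41 members were tested and 5 had an unadjusted p below 0.05, in males 41 and 0, and in both sexes together 36 and 4. Across all genes edgeR called 0% in each of the 3 comparisons, with 1489 of 19463, 272 of 19463 and 1444 of 18628 genes at an unadjusted p below 0.05, and DESeq2 called 48, 5 and 76 genes but no protocadherin. The medians of the tested clustered genes were 0.18 in females and 0.75 in males, against −0.02 and 0.00 over all genes. With 4 against 4 females and 2 against 2 males, the intervals were wide. For pcdh1g22 they were −1.21 to 4.03 and −1.92 to 5.63 on the log2 scale (nominal 95% intervals from the SE, which can be too narrow).

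The lowest p of the F2 line comparison was that of PCDH1 (ENSDARG00000062720), a delta-1 gene. Control females 11, 21, 31 and 39 had 15.2, 13.8, 34.1 and 44.1 CPM, and treated-line females 6, 10, 24 and 28 had 70.1, 38.9, 39.9 and 51.8 CPM. Control males had 36.1 and 38.3 CPM, and treated-line males 51.7 and 60.3 CPM. All 6 treated-line fish lay above the mean of the control line, 30.2 CPM, while control female 39 overlapped with them. The log2 difference was 0.80 (SE 0.263) with an unadjusted p of 0.00839, and it did not pass (edgeR adjusted p = 0.447). Control females 11 and 21, the lowest, are among the fish with few genes detected, and the part of that was not tested.

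The F0 calls were not repeated as calls in the F2 lines. For PCDH10 (ENSDARG00000099729) the F2 log2 differences were 0.25 in females (SE 0.119, edgeR adjusted p = 0.661) and 0.06 in males (SE 0.168, adjusted p = 1). For pcdhb they were 0.90 (SE 1.63) and 1.72 (SE 2.38), and for pcdh11 −0.21 (SE 0.25) and −0.07 (SE 0.358). The difference between the effect in F0 males and in F2 males was tested directly for 51 members. None passed, against 0% of 21082 genes in edgeR (1303 at an unadjusted p below 0.05; 11 genes by DESeq2), and 2 members had an unadjusted p below 0.05. The lowest was PCDH7 at −0.96 (SE 0.347, edgeR adjusted p = 0.789).

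For pcdh1g2, F2 fish of the same group differed widely. Control females 11, 21, 31 and 39 had 0, 0, 1.35 and 0.562 CPM, and treated-line females 6, 10, 24 and 28 had 2.06, 0.141, 0 and 0 CPM. Treated-line female 6 held 51 of the 290 reads of the gene over all fish, while 5 of the 12 F2 fish had no read. Treated-line females 6 and 24 and control females 11 and 21 are among the fish with few genes detected. The part of that in these differences was not tested. F2 males had 0 and 0.124 CPM in the control line and 0.503 and 0.136 CPM in the treated line. Its log2 differences between lines were 0.22 in females (SE 2.00) and 2.30 in males (SE 3.07).

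Some other genes followed the level of pcdh1g2 over the 24 fish more closely than the protocadherins compared did. Only 9 clustered genes had the level needed for this comparison, so most clustered relatives were left out. Among 16248 genes with a mean of at least 1 CPM, Pearson's r of log2 CPM was highest for ASH1L (0.879), CHD9 (0.866), BAHCC1 (0.864), USP20 (0.854) and E4F1 (0.852). Of the protocadherins, pcdhb came first with r = 0.784 at rank 89, then pcdh1g22 with 0.709 and pcdh1g9 with 0.678. PCDH10 (ENSDARG00000102824) was at the other end with −0.559. Mean levels of the genes named differed, from 240 CPM for ASH1L to 2.46 CPM for pcdhb. The mean of pcdh1g2 itself was 0.515 CPM, below the bound of 1 CPM set for the genes compared with it. The part of counting error in r was not tested. The points are fish that share library, depth and group differences, and the values are a description.

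Between F2 females and males, no member passed (36 tested, 1 at an unadjusted p below 0.05, against 980 of 18628 genes). In edgeR 0.0161% of all genes passed (3 of 18628), and DESeq2 called 30. The lowest p was that of pcdh11, which had 13.9 to 29.5 CPM in the 8 females and 11.1 to 15.1 CPM in the 4 males (log2 difference 0.63, SE 0.215, unadjusted p = 0.0089, edgeR adjusted p = 0.801). All 8 females were above the male mean, and the ranges overlapped between 13.9 and 15.1 CPM. A difference in line effect between the sexes passed for none of 41 members (0% of 19463 genes in edgeR, 291 at an unadjusted p below 0.05 and 0 by DESeq2; 0 members at an unadjusted p below 0.05).

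Between generations, 12 F0 and 4 F2 males were compared with the arm as a term, and 4 of 44 tested members passed, all higher in F0. Across all genes 12.9% passed, 7.06% higher and 5.87% lower in F0 males, and of the members 9.09% did. The share over all genes was 0.373% without F2 control male 25, 0.291% without F2 control male 27 and 27.0% without F0 treated male 16. Anything else that differed between the generations, such as rearing or library preparation, is not given in the labels and cannot be told apart from generation. PCDH1 (ENSDARG00000062720) had 48.3 to 93.1 CPM in F0 males and 36.1 to 60.3 CPM in F2 males, overlapping, with all 12 F0 males above the F2 mean. Its log2 change was 0.62 (SE 0.165, edgeR adjusted p = 0.0238), and that of PCDH7 was 0.71 (SE 0.192, adjusted p = 0.0254). Both calls held in 14 of 16 fits without 1 fish and were lost without either of the 2 F2 control males.

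PCDH7 had 11.0 to 25.2 CPM in F0 males and 8.91 to 16.3 CPM in F2 males, and 11 of the 12 F0 males were above the F2 mean. The hair cell gene PCDH15 (ENSDARG00000008127) had 6.39 to 18.2 CPM in F0 males and 7.44 to 11.8 CPM in F2 males (log2 change 0.63, SE 0.206, edgeR adjusted p = 0.0485). Its lowest F0 fish was treated male 16, and the other 11 lay at 13.1 CPM or above, over all 4 F2 males. pcdh1g22 had 2.36 to 16.8 CPM and 0.186 to 2.72 CPM (log2 change 1.94, SE 0.624, edgeR adjusted p = 0.0496). The calls of PCDH15 and pcdh1g22 held in 2 and 5 of the 16 fits, and without treated male 16 the number of clustered genes called was 6 in place of 1, in the fit where 27.0% of all genes passed.

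The clustered genes also varied more between fish of a group than the solitary ones. The biological coefficient of variation, the spread that edgeR estimates beyond counting error, had a median of 1.17 over the 26 clustered genes in the fit of all 6 groups (0.197 to 1.79). It was 0.227 over 20 solitary genes (0.12 to 1.22) and 0.394 over all 21082 genes. Since spread falls with level, the value was also set against the trend at the same level: 17 of 26 clustered and 2 of 20 solitary genes lay above it, against 36.0% of all genes. pcdh2g28, with the most reads, had the lowest value of the clustered genes. The fit includes the fish with few genes detected, and their part in the spread was not tested.

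Some clustered genes had a large share of their reads in 1 fish. All 54 reads of pcdh2ab2 came from F2 treated female 24, and 28 of the 44 reads of pcdh1a3 from F2 control female 11. Of the 210 reads of pcdh1g14, 79 (37.6%) came from F2 treated female 6. F2 treated females 6 and 24 and F2 control female 11 are among the fish with few genes detected. The part of that in these read numbers was not tested. Among members with 20 to 1000 reads in all, 2 of 26 (7.69%) had at least 50% of them in 1 fish, close to the 7.58% of 8454 genes with that many reads, so the share was near that of all genes.

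Lists of other genes of the cadherin system, chosen by their known roles, were read in the same F0 fit, in which 6.32% of all genes were called higher and 5.09% lower. The gene adam10b, whose mouse relative encodes an enzyme that sheds clustered protocadherins from the cell surface, rose by 0.35 on the log2 scale (SE 0.0945, edgeR adjusted p = 0.0313). Of partners inside the cell, such as the WAVE actin regulator complex that delta-2 protocadherins recruit, 3 of 19 rose and 2 fell (median 0.13). WASF1 rose by 0.63 (SE 0.114, edgeR adjusted p = 0.015) and brk1 by 0.40 (SE 0.101, adjusted p = 0.0264), both parts of that complex, and the kinase gene fynb fell (−1.28, SE 0.387, adjusted p = 0.0461).

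Among chromatin factors known in mouse to act on protocadherin clusters, such as CTCF and cohesin, 4 of 25 fell and 1 rose (median −0.25), where 5.09% of all genes were called lower and 6.32% higher. The cohesin subunit STAG2 (ENSDARG00000053668) had 91.8 ± 11.2 CPM in controls and 58.3 ± 11.3 CPM in treated males (SD, n = 6 each). Its log2 change was −0.65 (SE 0.126, edgeR adjusted p = 0.0151). That of STAG1 was −0.55 (SE 0.138, adjusted p = 0.0253), and rad21a rose by 0.31 (SE 0.0831, adjusted p = 0.0304). Another STAG2 ID (ENSDARG00000011783), at means of 63.5 and 57.9 CPM, and RAD21 (ENSDARG00000035655), at 144 and 155 CPM, were not called. Both called WAPL IDs, the releasing factor of cohesin, fell. Classical cadherins passed in 1 of 15 cases, the fall of CDH24 (−1.15, SE 0.293, edgeR adjusted p = 0.0274), with a list median of −0.01. Atypical cadherins passed in 0 of 19 in edgeR, with a median of −0.25. Of the 19, 4 had an unadjusted p below 0.05, against 5349 of 18057 genes in all. DESeq2 values were not kept for these lists. Catenins, which bind classical cadherins and not protocadherins, rose in 3 of 9 cases (all genes 6.32%), for example CTNNB1 (0.39, SE 0.0941, edgeR adjusted p = 0.022).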

How the data were processed

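The authors deposited whole-number read counts per gene, 1 table per run, for 31 runs of 24 fish. Per the submitters' processing notes, STAR 2.7 and HTSeq 0.11.2 were used with build GRCz11, after bcl2fastq and cutadapt 2.1, and DESeq2 1.24.0 is also named. Strand setting and annotation release were not given in the sources used here, which leaves overlapping genes and antisense partners uncertain. HTSeq's summary lines did not enter the depth. They entered tests only where the share of reads outside genes was a covariate. These lines put 16.6 to 23.5% of uniquely aligned reads outside genes and 0.446 to 0.511% as ambiguous.

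Runs of the 7 fish sequenced again were summed, and the fish was the replicate. Symbols came from a table that names 29201 of the 32520 IDs; it often lacks the paralog suffix, so 1 symbol can stand for several IDs. Counts were tested with edgeR 4.0.16 under R 4.3.3 (TMM, filterByExpr with minimum count 10, glmQLFit with robust = TRUE, glmQLFTest), with p adjusted by Benjamini-Hochberg over every gene tested and a threshold of 0.05. F0 males were fitted alone, and F2 fish together, by sex and line or with both as terms. CPM used 1 TMM scaling over 24 fish; log2 CPM had a prior count of 2. SE is the log2 change over the root of F. The procedure was also tested on simulated data. Alternatives were DESeq2 1.42.0, other scaling, no filter, first runs, other samples in the fit, a covariate and leaving out each fish. Tables and plots used Python 3.11.15, pandas 2.3.3 and matplotlib 3.10.9.

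The members and lists were chosen with earlier results of these data known. The genes named were up to 12 called members per comparison, pcdh1g2, and the 5 clustered and 5 other members of highest level and of largest spread at 1 CPM or more; further members were named after their values were seen, to account for each subfamily. As the libraries have no stated molecular identifiers, limits from counts cover counting error only. Of the list of cleavage enzymes, 1 gene and the counts that include it are not reported here.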

Additional observations from a re-analysis of the deposited data

Results flagged for a closer look

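A search for single fish far from the rest of their group, over 92 sets of a named member and a group of 4 or 6 fish, marked 9 values. Chance marks about 1 in 20 sets of members not chosen by spread. Several named members were chosen for their large spread between these same fish, so the 9 values cannot be set against that rate. Treated F0 male 2 was the lowest of its arm for PCDH10 (ENSDARG00000099729), at 251.7 CPM against 293 CPM for the next fish. The same fish was the highest of its arm for pcdhb, at 4.28 CPM against 1.75 CPM. Both times it lay on the side of the control males.

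F2 treated female 6 was far above the other 3 fish of its group for pcdhb, at 5.53 CPM against 0.703 CPM, and for pcdh1g2, at 2.06 CPM against 0.141 CPM. Treated F0 male 38 was low for PCDH18 (ENSDARG00000052494), at 71.2 CPM against 92.7 CPM, and treated F0 male 16 for PCDH15 (ENSDARG00000008127), at 6.39 CPM against 13.6 CPM. F2 treated female 6 and treated F0 male 16 are among the fish with few genes detected, and the part of that was not tested. Among F0 control males, fish 33 was high for pcdh1gc6, at 18.4 CPM against 7.57 CPM, fish 9 for pcdh1g26, at 11.3 CPM against 3.61 CPM, and fish 25 was low for pcdh1g30, at 2.91 CPM against 5.66 CPM.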

How the results depend on the processing

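In F0 males the number of clustered genes called was 1; it was 0 without a filter, without the 3 libraries that stand apart, with the outside-gene share as covariate and with all 24 fish in 1 fit, 2 with first runs and 3 with DESeq2, and 0 to 4 when 1 fish was left out (4 without control male 15 or treated male 2). The share of all genes called moved as well, from 11.4% to 6.16% without a filter, 0.227% without the 3 libraries, 0% with the covariate, 3.73% in 1 fit, 11.4% with first runs, 21.0% with DESeq2 and 2.40 to 17.5% without 1 fish. The number of other genes called was 6; it was 2 without a filter, 0 without those 3 libraries, 0 with the covariate, 1 with all fish in 1 fit, and 2 to 8 without 1 fish (8 without treated male 2). With the covariate the clustered median was −0.02 and PCDH10 (ENSDARG00000102824) turned to −0.03 (−0.03124); the cause was not tested. Between generations, 1 clustered gene was called, against 0 with another scaling or without a filter, 3 with DESeq2, 5 without the 3 libraries and 0 to 6 without 1 fish (6 without treated male 16); 3 other genes were called, against 5 with DESeq2 and 0 to 5 without 1 fish (0 without either F2 control male), while the share of all genes moved from 12.9% to 21.7% with DESeq2, 23.3% without the 3 libraries and 0.291 to 27.0% without 1 fish. In the F2 lines, the sexes and both tests of differences between effects, 0 members passed under every alternative run for them. In the comparison of generations, 12.6% of all genes were called with the other scaling and 7.62% without a filter. The F0 clustered median lay between −1.26 and −0.68 under all alternatives other than the covariate, fish left out included. No paired analysis was possible because equal fish numbers mark different fish: F0 and F2 males share number 25 among controls and 38 among treated fish, and no 2 groups compared share more than 1.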
